A study of Mus musculus with 8 samples.

Results

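The integrated stress response and the unfolded protein response were followed through 42 genes, chosen by name as targets, factors and sensors of these pathways, of 55367 genes in the count table. All 42 were present under their exact symbols, 24 in an ATF4 arm, 14 in an ATF6 and XBP1 arm, and 4 as sensors. The cells were Neuro2a, a mouse neuroblastoma line, transfected with plasmids. Both groups received sadCas9-VP64, a catalytically dead Cas9 of Staphylococcus aureus fused to the VP64 activator. CRISPRa cultures received 750 ng of that plasmid together with 750 ng of a plasmid for a single guide RNA (sgRNA), and the no-sgRNA cultures received sadCas9-VP64 alone, in an amount the labels do not give. The presence of a guide and the added plasmid DNA cannot be told apart in this design. The time between transfection and harvest is not given in the sources used here. The series title names SCN2A, and the mouse gene Scn2a averaged 7.81 CPM (TMM-normalised counts scaled to library size) with CRISPRa and 5.61 CPM in controls (log2 fold change 0.48, SE 0.19, edgeR adjusted p 0.0899).

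Cells slow protein synthesis under stress when a kinase phosphorylates the translation factor eIF2. Translation of ATF4 then rises, and ATF4 switches on genes for amino acid supply, tRNA charging and, with CHOP, feedback and cell death. Misfolded protein in the endoplasmic reticulum (ER) activates 3 membrane sensors: PERK, one of the eIF2 kinases, IRE1, which splices Xbp1 mRNA, and ATF6, which is cleaved to a transcription factor. ATF6 and spliced XBP1 raise ER chaperones and the machinery that clears misfolded proteins. Counts per gene show neither the translation of Atf4 nor the splicing of Xbp1.

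Counts were analysed for 3 CRISPRa libraries (replicates 2, 3 and 5) and 3 no-sgRNA libraries (replicates 2, 3 and 4), with 29739422 to 34248514 counts each, of which the 42 genes took 1.51% to 1.90%. Nothing in the labels says that replicates came from separate cultures, so p-values measure the spread between these samples, which may be technical. Within each group replicates 2 and 3 were closest (chi-square per degree of freedom 4.88 and 6.28), against 15.3 to 18.7 for pairs with CRISPRa replicate 5 or no-sgRNA replicate 4. Of 15 sympathoadrenal neuroblastoma markers, 12 exceeded 1 CPM in every library, while the neurofilament genes Nefl and Nefm did not. Leukocyte markers summed to at most 0.459 CPM. The 4 endothelial markers summed to 8.42 to 11.6 CPM with CRISPRa and 10.1 to 13.7 CPM in the controls. The 4 glial markers summed to 8.97 to 11.5 CPM and 9.90 to 13.0 CPM. The 5 fibroblast markers, mainly Pdgfra and Col1a2, summed to 14.6 to 21.4 CPM with CRISPRa and 28.6 to 32.4 CPM in the controls, and their part in the results below was not tested.

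The regulatory sequences of the 2 arms are shown first, because they are the elements by which the factors of each arm are known to act. RefSeq promoter windows (GRCm38.p6, 250 bases before to 50 after the start) matched 38 of the 42 genes, and Atf6, Hyou1, Manf and Slc7a5 had none. ATF4 binds the C/EBP-ATF response element (CARE), searched as TGATGNAA on both strands. It occurred in 3.97% of all 32851 windows and, counting any window of a gene, in 1219 of 27025 genes. Counted by gene, it occurred in 9 of 23 of the ATF4 arm with a window, and in 1 of 12 of the ATF6 and XBP1 arm. The ER stress response element (ERSE), bound by ATF6 with NF-Y, was searched as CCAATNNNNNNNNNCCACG on both strands. It occurred in 0.119% of windows and in 37 of the 27025 genes, in 0 of the 23 and in 6 of the 12. The XBP1 motif TGACGTGG occurred in 0.676% of windows, in 193 of the 27025 genes, and in none of the genes of either arm. The ERSE ends in CCACG, which is also the start of the XBP1 motif read on the opposite strand, so these can overlap. A match shows only that the letters are present.

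The sites are printed on the strand that carries the motif, 30 bases each, with the searched letters in capitals. The first 2 lines are CARE genes that rose with CRISPRa and the next 5 are taken from the 7 tested CARE genes that did not pass, with Aars and Trib3 not printed. Of the tested members with a window, 2 of 9 with a CARE rose and 0 fell, and 7 of 28 without one rose and 3 fell. Among all 10671 tested genes with a window, 10.5% rose and 10.4% fell. Slc7a11 carries a pair of sites facing each other, so its second appears as the reverse complement.
Slc7a11 (chr3:50443651-50443680, minus strand): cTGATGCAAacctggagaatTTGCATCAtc
Atf3 (chr1:191183425-191183454, plus strand): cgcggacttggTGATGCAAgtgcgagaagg
Asns (chr6:7693214-7693243, minus strand): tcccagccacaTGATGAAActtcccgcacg
Chac1 (chr2:119351038-119351067, minus strand): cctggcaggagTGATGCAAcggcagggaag
Nupr1 (chr7:126625562-126625591, plus strand): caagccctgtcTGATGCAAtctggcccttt
Gars (chr6:55037960-55037989, minus strand): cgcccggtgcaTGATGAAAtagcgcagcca
Herpud1 (chr8:94386306-94386335, minus strand): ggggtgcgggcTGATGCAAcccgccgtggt

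The ERSE sites are shown for the 6 genes that held one, of which Hspa5 rose and 5 did not pass. Hsp90b1 held a further site that is not printed (chr10:86705632-86705661, minus strand). Capitals mark the outer 5 letters on each side of the 9 free bases.
Hspa5 (chr2:34772020-34772049, plus strand): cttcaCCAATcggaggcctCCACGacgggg
Calr (chr8:84847069-84847098, plus strand): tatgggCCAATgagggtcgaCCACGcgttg
Dnajc3 (chr14:118937822-118937851, plus strand): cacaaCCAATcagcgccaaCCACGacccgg
Pdia6 (chr12:17266486-17266515, plus strand): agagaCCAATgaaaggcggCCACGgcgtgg
Creld2 (chr15:88819515-88819544, minus strand): tgtggaCCAATtgaggctcgCCACGagaag
Hsp90b1 (chr10:86705527-86705556, plus strand): aactcaCCAATcgtgcctcaCCACGcactc

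With CRISPRa, the log2 fold changes of the ATF4 arm lay on both sides of 0, 12 above and 11 below. The 5 genes called higher in it rose by 0.24 to 1.39 on the log2 scale. The log2 fold changes of the ATF6 and XBP1 arm were all above 0, from 0.02 for Dnajc3 to 0.67 for Hspa5. Of the 41 genes that passed the low-count filter, 11 rose and 3 fell (edgeR quasi-likelihood test, Benjamini-Hochberg adjusted p under 0.05 over 15117 tested genes). That is 34.1%, where 18.7% of all tested genes were called, 9.47% higher and 9.25% lower. In the ATF4 arm 5 of 23 tested genes rose and 3 fell, with a median log2 fold change of 0.0026. In the ATF6 and XBP1 arm 4 of 14 rose and 0 fell, and all 14 log2 fold changes were above 0, with a median of 0.20. The median over all tested genes was -0.0071. Groups were fully separated for 8 ATF4-arm genes above and 5 below the controls, and for 5 above and 0 below in the ATF6 and XBP1 arm, where 17.7% of all tested genes were separated upward and 18.7% downward. The difference between the arms was not tested, since the genes were chosen with earlier results known. In the authors' deposited table of 8 samples, 16 of the 41 genes had an adjusted p under 0.05 with a positive sign and 4 with a negative sign, where 14.8% and 13.8% of all its genes with an adjusted p did. Past it there but not here were Ddit3, Gdf15, Hsp90b1, Calr and Herpud1 with a positive sign and Atf5 with a negative sign. The 8 samples include the libraries used here, so that table is not an independent repeat.

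**Figure D1:**
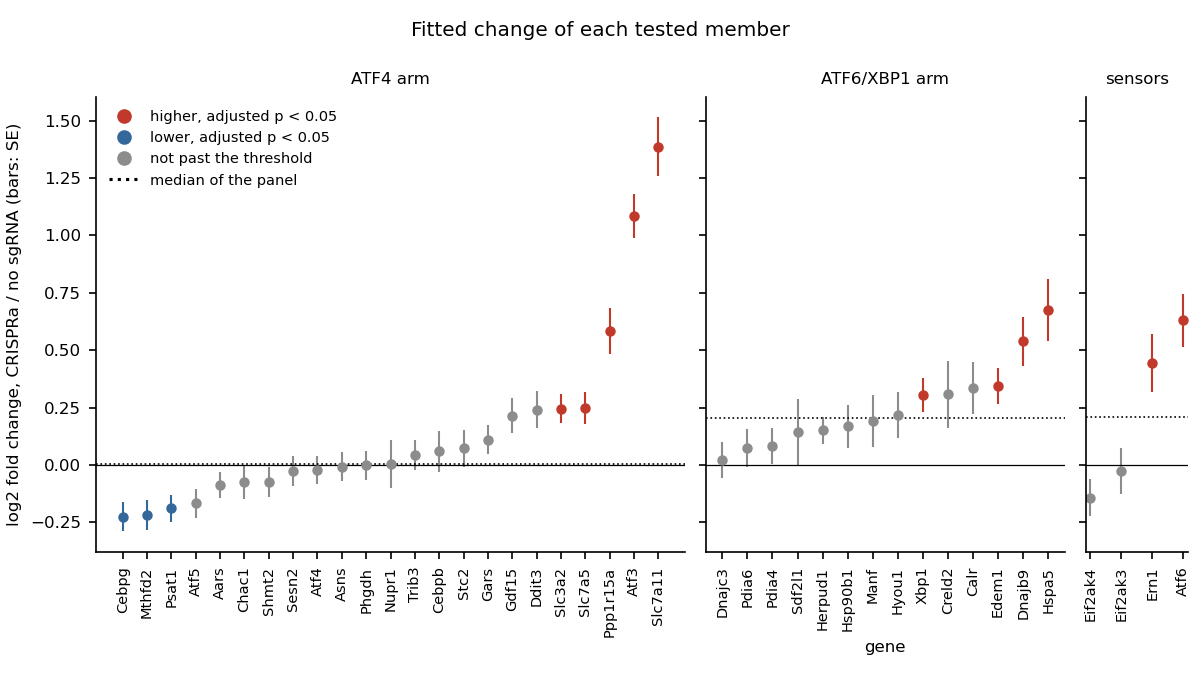
Fitted log2 fold change (CRISPRa over no sgRNA, vertical axis, bars are 1 SE) of the 41 tested genes, ordered within the ATF4 arm, the ATF6 and XBP1 arm and the sensors. Most ATF4-arm points lie around 0 with Slc7a11 at 1.39 and Atf3 at 1.08 far above, whereas all 14 points of the ATF6 and XBP1 arm lie above 0.

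Of the 8 factors and regulators in the ATF4 arm 1 rose, 1 fell and 6 did not pass. Among all tested genes 9.47% rose and 9.25% fell. Atf4 mRNA stood at 1106, 1088 and 1104 CPM in CRISPRa replicates 2, 3 and 5 and at 1061, 1098 and 1188 CPM in no-sgRNA replicates 2, 3 and 4. The groups overlapped, with a fitted log2 change of -0.02 (SE 0.06, edgeR adjusted p 0.855). Atf3, a stress-induced repressor of the same bZIP family, stood at 147, 149 and 189 CPM against 72.7, 84.6 and 71.5 CPM. Every CRISPRa library exceeded every control, a 2.12-fold rise (log2 fold change 1.08, SE 0.10, edgeR adjusted p 1.97e-06).

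Ddit3, which encodes the pro-apoptotic factor CHOP, was at 240, 255 and 303 CPM with CRISPRa and 220, 218 and 237 CPM in the controls. The groups did not overlap, but replicate 2 of CRISPRa lay only just above the highest control. The fitted log2 change of 0.24 (SE 0.08) had an edgeR adjusted p of 0.0502. It passed under 9 of the 10 other settings of scaling, filter, tool, length trend and library subset (limma-voom was the exception), but in 2 of 6 leave-one-out fits. Without CRISPRa replicate 5 it was 0.14 (adjusted p 0.173). Cebpg, a dimer partner of ATF4, fell from 180, 183 and 197 CPM to 166, 159 and 155 CPM (log2 fold change -0.23, SE 0.06, edgeR adjusted p 0.0223). Its call survived in 1 of 6 leave-one-out fits. Atf5, another factor translated when eIF2 is phosphorylated, had 451, 451 and 432 CPM against 476, 527 and 495 CPM (log2 fold change -0.17, edgeR adjusted p 0.0754). Cebpb, Nupr1 and Trib3, the last a pseudokinase that restrains ATF4 and CHOP, had overlapping groups and log2 fold changes of 0.0026 to 0.059. The value of Cebpb is uncertain, because Tmem189 lies opposite 20.7% of its exonic bases and strand use in counting is not stated.

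The ATF4 arm held 5 enzymes of amino acid or folate-linked synthesis. Among them 0 rose and 2 fell, where 9.47% and 9.25% of all tested genes did. The log2 fold changes of these 5 ran from -0.22 to -0.0017, those of Asns and Phgdh turning positive under other scalings. Asns, asparagine synthetase and a classical ATF4 target, had 756, 787 and 868 CPM with CRISPRa and 817, 794 and 812 CPM in the controls, with overlapping groups (log2 fold change -0.0071, SE 0.06, edgeR adjusted p 0.956). Psat1, of serine synthesis, fell from 661, 664 and 648 CPM to 558, 579 and 594 CPM (log2 fold change -0.19, SE 0.06, edgeR adjusted p 0.0360). Mthfd2, of mitochondrial folate metabolism, fell from 424, 430 and 416 CPM to 342, 356 and 393 CPM (log2 fold change -0.22, SE 0.07, edgeR adjusted p 0.0287). The controls of both genes lay above every CRISPRa library, and each call held in 2 of 6 leave-one-out fits. Without CRISPRa replicate 2 the adjusted p was 0.194 for Psat1 and 0.178 for Mthfd2. With library-size scaling Psat1 also missed the threshold. Phgdh and Shmt2 had overlapping groups (log2 fold changes -0.0017 and -0.07). Phgdh is uncertain, since 47.8% of its 50-base words occur in other genes, mainly Gm7901.

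All 3 amino acid transporter genes rose, where 9.47% of all tested genes did, and Slc7a11 changed more than any other of the 42. It encodes xCT, the cystine importer that feeds glutathione synthesis and is also a target of the oxidant-response factor NRF2. Slc7a11 (chromosome 3, 49892526 to 50443614, minus strand, GRCm38) had 303, 354 and 388 CPM against 155, 144 and 100.03 CPM. All CRISPRa libraries lay far above all controls. The mean was 348 ± 42.6 CPM in CRISPRa libraries and 133 ± 29.3 CPM in controls (SD, n = 3), a 2.61-fold rise (log2 fold change 1.39, SE 0.13, edgeR adjusted p 3.07e-06). It ranged from 1.13 to 1.51 over the alternatives.

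Slc3a2, the heavy chain that pairs with both light chains of this group, had 775, 776 and 860 CPM against 674, 703 and 656 CPM, a 1.19-fold rise (edgeR adjusted p 0.0152). Slc7a5, the LAT1 light chain for large neutral amino acids, had 2305, 2404 and 2551 CPM against 2093, 2167 and 1860 CPM, a 1.19-fold rise (log2 fold change 0.25, edgeR adjusted p 0.0227). Without CRISPRa replicate 3 it was 0.26 with an adjusted p of 0.0602. In the 4 libraries numbered 2 and 3 it was 0.15 and passed. The tRNA synthetases Aars and Gars did not pass (log2 fold changes -0.09 and 0.11, edgeR adjusted p 0.320 and 0.259), and 14.3% of the exonic bases of Aars overlap Exosc6.

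Among feedback and stress outputs 1 of 5 tested genes passed, where 18.7% of all tested genes did. Ppp1r15a, which encodes GADD34, the phosphatase subunit that dephosphorylates eIF2, had 531, 521 and 708 CPM against 409, 404 and 360 CPM. The groups were well apart, a 1.4996-fold rise (log2 fold change 0.58, SE 0.10, edgeR adjusted p 0.000948). It passed in every alternative, at 0.37 in the 4 libraries numbered 2 and 3. Gdf15, a secreted stress cytokine, had 87.1, 84.7 and 100.3 CPM against 76.4, 82.4 and 75.6 CPM, without overlap but with an edgeR adjusted p of 0.0683. Chac1, a glutathione-degrading enzyme widely used as an ATF4 and CHOP readout, had 144, 144 and 130.1 CPM against 133, 160 and 148 CPM, with overlapping groups. Its log2 fold change was -0.07 (SE 0.08, edgeR adjusted p 0.546). Sesn2 and Stc2 also overlapped, at -0.02 and 0.07. Vldlr, a lipoprotein receptor gene, had 0, 6 and 2 counts with CRISPRa and 4, 2 and 0 counts in the controls and was not tested.

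**Figure D2:**
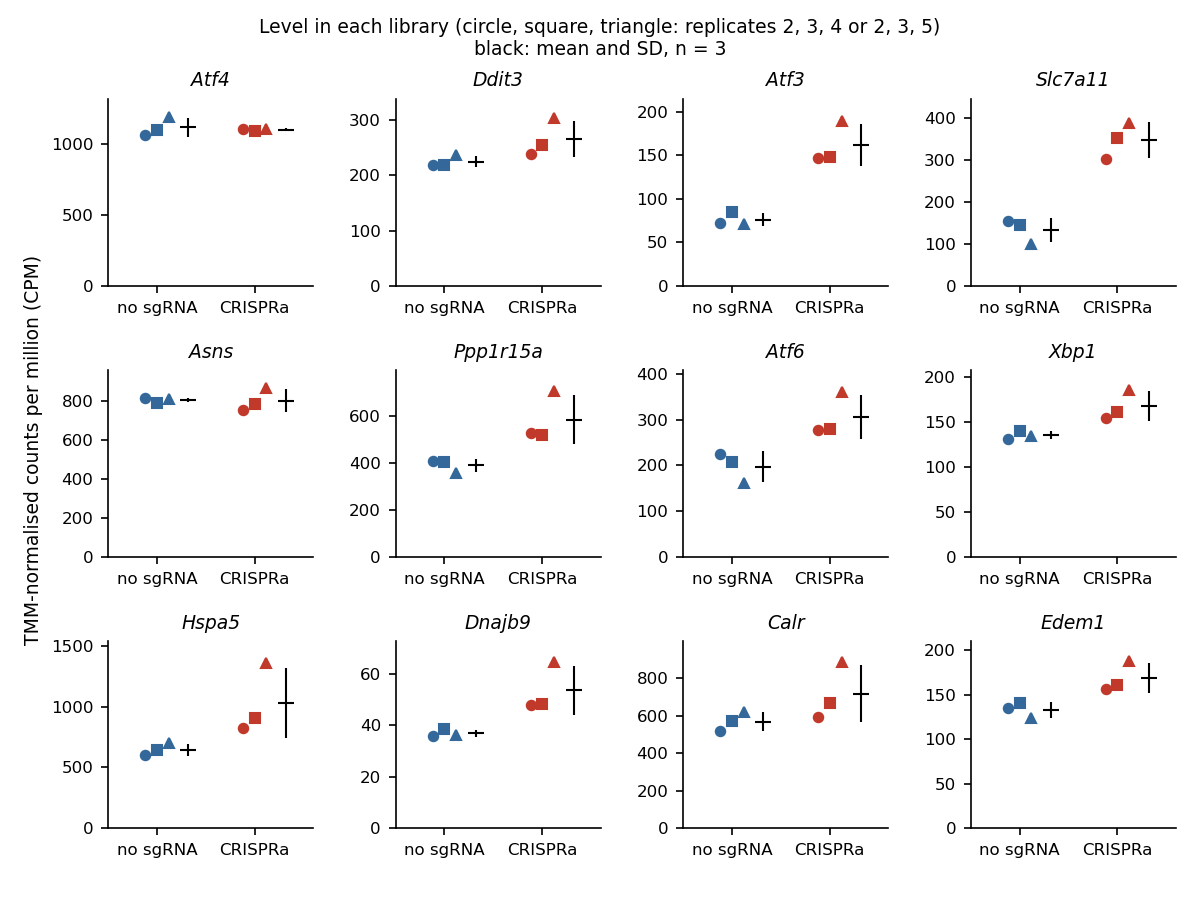
TMM-normalised CPM (vertical axes, from 0) of 12 genes in the 3 no-sgRNA and 3 CRISPRa libraries, with the mean and SD (n = 3) in black. Atf4 and Asns overlap between groups, Atf3 and Slc7a11 are separated widely, and CRISPRa replicate 5 (triangle) is the highest CRISPRa point for Hspa5, Calr and Dnajb9.

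In the ATF6 and XBP1 arm, 2 of 11 chaperones and folding enzymes rose, and the other 9 did not pass. Over all tested genes 9.47% rose. Hspa5 encodes BiP, the main ER chaperone, which also holds the sensors inactive (chromosome 2, 34771970 to 34777547, plus strand, GRCm38). It had 827, 906 and 1366 CPM with CRISPRa and 600.2, 642 and 699 CPM in the controls. All CRISPRa libraries lay above all controls, and replicate 5 stood far above the other two. The rise was 1.596-fold (log2 fold change 0.67, SE 0.14, edgeR adjusted p 0.00304). Without CRISPRa replicate 5 it was 0.43 (adjusted p 0.00106), still past the threshold.

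Dnajb9, the ER co-chaperone ERdj4 and an XBP1 target, had 47.9, 48.4 and 64.6 CPM against 35.9, 38.5 and 36.3 CPM, a 1.45-fold rise (log2 fold change 0.54, SE 0.11, edgeR adjusted p 0.00279). Calr, the calcium-binding chaperone calreticulin, had 595, 666 and 888 CPM against 516, 569 and 617 CPM. One CRISPRa library fell within the control range, and the fitted log2 change of 0.34 (SE 0.11) had an edgeR adjusted p of 0.0516. It passed under 8 of the 10 other settings, but in 1 of 6 leave-one-out fits. Without CRISPRa replicate 5 it was 0.16 (adjusted p 0.197). The remaining chaperones and folding enzymes overlapped between groups. They were Hsp90b1 (GRP94), Hyou1, Dnajc3, Sdf2l1, Pdia4, Pdia6, Creld2 and Manf, with log2 fold changes of 0.02 for Dnajc3 to 0.31 for Creld2 and edgeR adjusted p-values of 0.144 to 0.881. Exons of other genes lie opposite 10.3% of the exonic bases of Hsp90b1.

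Of the genes of ER-associated degradation 1 of 2 rose, and so did the factor Xbp1, where 9.47% of all tested genes rose. Edem1, a lectin that extracts misfolded glycoproteins, had 156, 161 and 188 CPM against 135, 141 and 123 CPM, a 1.27-fold rise (log2 fold change 0.34, SE 0.08, edgeR adjusted p 0.00706). Herpud1, a scaffold of the degradation complex whose promoter holds a CARE, had 347, 353 and 362 CPM against 309.5, 326 and 319 CPM. Its groups did not overlap, yet the fitted log2 change of 0.15 had an edgeR adjusted p of 0.0877. Xbp1 had 155, 162 and 186 CPM against 132, 141 and 134 CPM, a 1.24-fold rise without overlap (log2 fold change 0.31, SE 0.07, edgeR adjusted p 0.0101). Hspa5, Dnajb9, Edem1 and Xbp1 were called under each of the 10 other settings and in each of the 6 leave-one-out fits, Edem1 at 0.21 in the 4 libraries numbered 2 and 3.

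The size of the shift differed among CRISPRa libraries. For all 14 genes of the ATF6 and XBP1 arm, CRISPRa replicate 5 was the highest and replicate 2 the lowest CRISPRa library. In the ATF4 arm replicate 5 was highest for 17 of 23 genes, and over all tested genes for 38.7%. The arm's median log2 level relative to the control mean was 0.05, 0.12 and 0.46 in CRISPRa replicates 2, 3 and 5, against -0.05, 0.03 and 0.04 in the controls. For the ATF4 arm the same values were -0.02, -0.02 and 0.15, against -0.03, 0.02 and -0.01. CRISPRa replicate 2 of the ATF6 and XBP1 arm thus lay close to the control range, and replicate 5 far outside it. Without CRISPRa replicate 5 the ATF6 and XBP1 arm's median log2 fold change was 0.11 and 12 of 14 genes were above 0. The same 4 genes passed, where 14.4% of all tested genes did. In the 4 closer libraries numbered 2 and 3 the arm's median was 0.15 and 8 genes passed, Calr, Creld2, Herpud1 and Hsp90b1 in addition. Unblocked, those libraries called 18.5% of all tested genes.

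**Figure D3:**
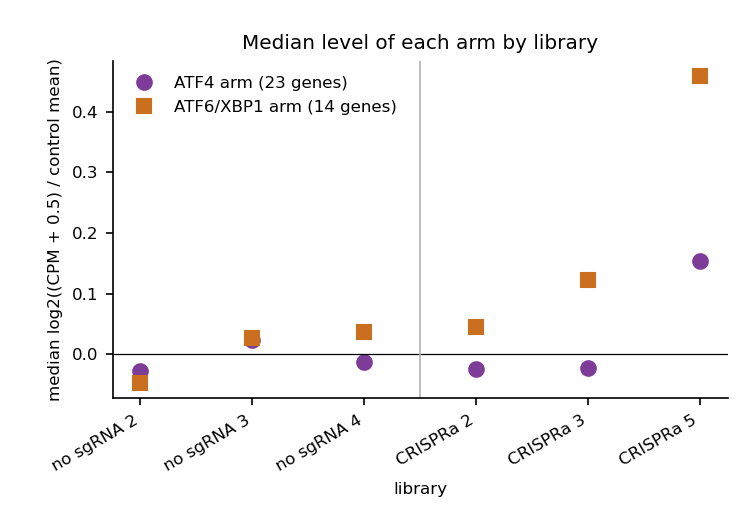
Median log2 ratio of CPM plus 0.5 to the control mean (vertical axis) over the 23 tested genes of the ATF4 arm and the 14 of the ATF6 and XBP1 arm, in each library. CRISPRa replicate 5 stands at 0.46 for the ATF6 and XBP1 arm and 0.15 for the ATF4 arm, above every other library.

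**Figure D4:**
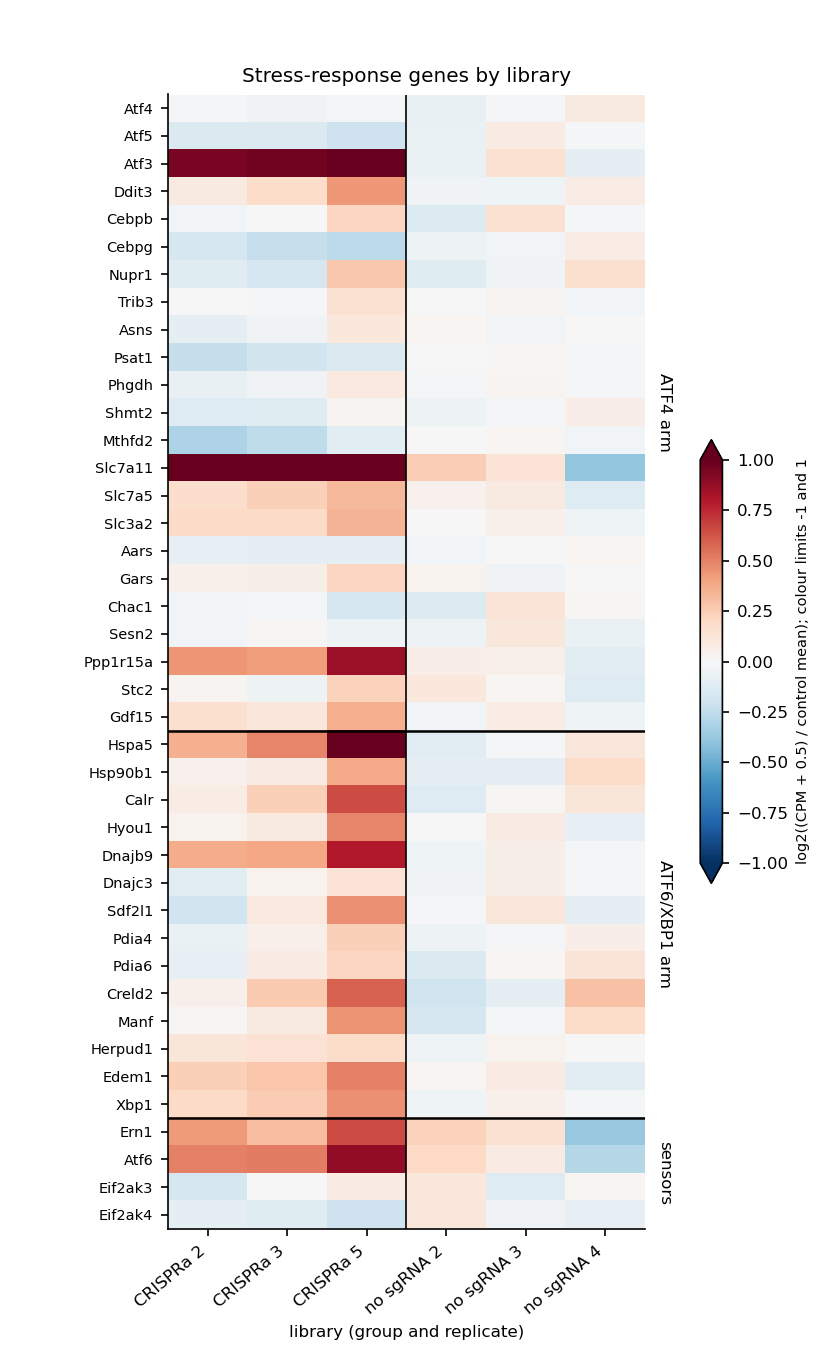
Log2 ratio of CPM plus 0.5 to the mean of the control libraries for the 41 tested genes (rows, grouped by arm) in the 6 libraries (columns), with colours limited at -1 and 1. Slc7a11 and Atf3 are dark red in all 3 CRISPRa libraries, and the rows of the ATF6 and XBP1 arm are reddest in CRISPRa replicate 5.

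Of the 4 sensors, the genes for IRE1 and ATF6 rose and those for the eIF2 kinases PERK and GCN2 did not pass. The share of all tested genes that rose was 9.47%. Atf6 (chromosome 1, 170704674 to 170867771, minus strand, GRCm38) had 277, 279 and 361 CPM against 225, 207 and 160.5 CPM. CRISPRa replicate 5 was highest and no-sgRNA replicate 4 lowest, with no overlap between groups. The rise was 1.55-fold (log2 fold change 0.63, SE 0.12, edgeR adjusted p 0.00162), and 0.37 in the 4 libraries numbered 2 and 3, where it still passed. Ern1, which encodes IRE1, had 113, 105 and 133 CPM against 98.95, 93.7 and 64.7 CPM, a fitted log2 change of 0.45 (SE 0.13, edgeR adjusted p 0.0236). That call rested on the libraries at either end: it was 0.35 (adjusted p 0.0891) without CRISPRa replicate 5 and 0.28 (adjusted p 0.0620) without no-sgRNA replicate 4. In the 4 libraries numbered 2 and 3 it was 0.18 (adjusted p 0.0505), and DESeq2 did not pass it either. Its adjusted p in the authors' table of 8 samples was 0.0134.

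Eif2ak3, which encodes PERK, had 26.2, 29.6 and 31.1 CPM against 31.7, 26.9 and 29.8 CPM (log2 fold change -0.03, SE 0.10, edgeR adjusted p 0.889). Eif2ak4, which encodes GCN2, the kinase that reads uncharged tRNA, had 47.1, 46.3 and 43.4 CPM against 54.4, 49.2 and 47.5 CPM (log2 fold change -0.14, SE 0.08, edgeR adjusted p 0.245). PERK mRNA thus overlapped between groups, and GCN2 mRNA was lower in every CRISPRa library without passing.

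Levels in the control cells can be set side by side per kilobase of exon. In CPM per kilobase, Slc7a5 was highest of the 42 at 550.1, followed by Atf4 at 473, Asns at 295, Gars at 271 and Phgdh at 269.96, the last with its shared sequence. Hspa5 stood at 153 and Xbp1 at 41.7. Levels were 21.4 for Atf6, 10.5 for Ern1, 6.76 for Eif2ak4 and 4.89 for Eif2ak3. In bulk RNA, fewer expressing cells and less RNA per cell cannot be told apart.

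Other genes of the pathways formed 4 further lists. The eIF2 machinery held the largest change: Eif2ak2, the interferon-inducible, double-stranded RNA-activated kinase PKR, had 194, 184 and 187 CPM against 43.4, 45.9 and 44.0 CPM. The groups were far apart with little spread, a 4.24-fold rise (log2 fold change 2.08, SE 0.07, edgeR adjusted p 3.57e-12). Of the 15 genes of that list 3 rose and 1 fell, or 26.7% called, where 18.7% of all tested genes were called (9.47% higher and 9.25% lower), with a median log2 fold change of -0.0043. Impact, an inhibitor of GCN2, rose 1.58-fold from 181, 180 and 171 CPM to 268, 258 and 314 CPM (edgeR adjusted p 2.50e-05). Gcn1, the GCN2 coactivator, rose by 0.22 on the log2 scale (edgeR adjusted p 0.0304), passing in 1 of 6 leave-one-out fits. With the gene-length trend removed Gcn1 was 0.09 (adjusted p 0.302). Eif2b5, a subunit of the eIF2 exchange factor, had a fitted log2 change of -0.20 (edgeR adjusted p 0.0428) and passed in 0 of these 6.

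Of 28 further ATF4-linked genes 5 rose and 3 fell, or 28.6% called against 18.7% of all tested genes, with a median log2 fold change of 0.03. The share that fell was near the 9.25% of all tested genes. Sqstm1, the autophagy receptor p62, rose 1.72-fold from 872, 940 and 896 CPM to 1407, 1459 and 1779 CPM (edgeR adjusted p 1.08e-05), with 17.3% of its exonic bases opposite another gene. Wars, a tryptophanyl-tRNA synthetase also induced by interferon, rose by 0.54 on the log2 scale (edgeR adjusted p 0.00706), by 0.34 without CRISPRa replicate 5 and by 0.25 in the 4 libraries numbered 2 and 3. It missed the threshold with DESeq2 (adjusted p 0.0518), and its adjusted p in the authors' table of 8 samples was 0.0369. Aldh1l2, a mitochondrial folate enzyme, rose by 0.45 on the log2 scale (edgeR adjusted p 0.0125), with 14.1% of its exonic bases opposite another gene. It was 0.19 in the 4 libraries numbered 2 and 3, 0.29 without CRISPRa replicate 5, and missed the threshold without no-sgRNA replicate 4 (adjusted p 0.0621) and with DESeq2 (adjusted p 0.0754). Its adjusted p in the authors' table of 8 samples was 0.00392. Ddit4, the mTORC1 inhibitor REDD1, fell from 422, 512 and 502 CPM to 329, 335 and 333 CPM, a fitted log2 change of -0.53 (SE 0.07, edgeR adjusted p 0.000184). Cth, of cysteine synthesis, and Aldh18a1, of proline synthesis, fell by 0.27 and 0.23 on the log2 scale (edgeR adjusted p 0.00634 and 0.0129).

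Of 33 further genes of ER folding and degradation 5 rose and 2 fell, a share of 21.2%, near the 18.7% of all tested genes, with a median log2 fold change of 0.08. The authors' table of 8 samples gave 14 of the 33 an adjusted p under 0.05 with a positive sign and 3 with a negative sign. Among all its genes with an adjusted p the shares were 14.8% and 13.8%. Sel1l, the core scaffold of ER-associated degradation, rose from 204, 203 and 185 CPM to 251, 244 and 286 CPM (log2 fold change 0.40, SE 0.07, edgeR adjusted p 0.00142). Sec24d, a coat protein of ER export vesicles, and Edem3, a mannosidase related to EDEM1, rose by 0.35 and 0.36 on the log2 scale (edgeR adjusted p 0.00403 and 0.00543). P4hb, a protein disulfide isomerase, went the other way, from 826, 841 and 1042 CPM to 709, 718 and 561 CPM (log2 fold change -0.45, SE 0.10, edgeR adjusted p 0.00621). For P4hb CRISPRa replicate 5 was the lowest of all 6 libraries and no-sgRNA replicate 4 the highest, and the value was -0.22 in the 4 libraries numbered 2 and 3. Sil1, a nucleotide exchange factor for BiP, had a fitted log2 change of -0.32 (edgeR adjusted p 0.0486) that was -0.12 in the 4 libraries numbered 2 and 3 and passed under 2 of the 10 other settings. Its adjusted p in the authors' table of 8 samples was 0.0692.

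Among 9 genes of IRE1 and ATF6 processing 3 rose and 0 fell, or 33.3% called against 18.7% of all tested genes, with a median log2 fold change of -0.05. Map3k5, the kinase ASK1 that acts below IRE1, rose 1.73-fold from 19.4, 19.5 and 19.7 CPM to 35.7, 33.9 and 31.4 CPM (edgeR adjusted p 3.45e-05). Mbtps2, the protease that completes ATF6 cleavage, rose from 129, 132 and 125 CPM to 163, 161 and 170.2 CPM (edgeR adjusted p 0.00113), with 28.4% of its exonic bases shared with Yy2. Creb3l2, a factor of the CREB3 family, rose by 0.23 on the log2 scale (edgeR adjusted p 0.0498) and passed in 2 of 6 leave-one-out fits.

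**Figure D5:**
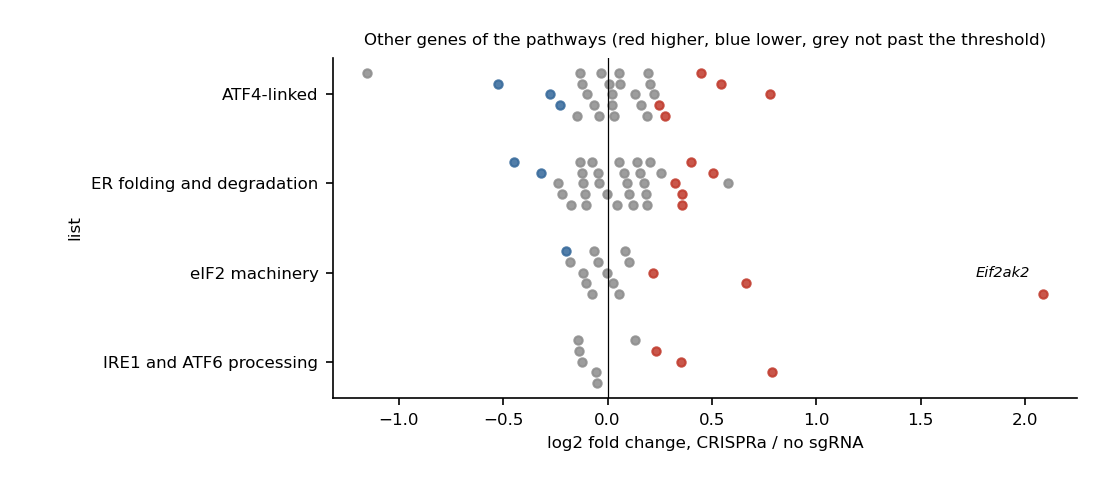
Log2 fold change (CRISPRa over no sgRNA, horizontal axis) of the 28, 33, 15 and 9 genes of the 4 further lists, one point per gene, with vertical offsets only to separate points. Eif2ak2 at 2.08 lies far to the right of all others.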

How the data were processed

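The authors deposited whole-number read counts per gene for 6 libraries, with summed exon lengths, made with STAR 2.5.1b on mm10 and featureCounts, per the submitters' processing notes. Annotation release, strandedness and handling of multi-mapping reads are not given in the sources used here. A second deposited table holds the authors' comparison of 8 samples. Per the file headers it gives a signal (mean normalised count), log2 fold changes and their errors, a test score, and p-values. Its header does not state the direction; Eif2ak2 is positive in it and was higher in the CRISPRa counts. For 2 further samples (CRISPRa replicate 1, control replicate 5), counts were not used here.

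Counts were fitted with edgeR 4.0.16 in R 4.3.3 (filterByExpr, TMM factors, glmQLFit, glmQLFTest) without covariates, and p-values were adjusted over all 15117 genes tested. The SE is the size of the log2 fold change over the square root of F. CPM values are TMM-normalised. Members and lists were chosen with earlier results of these data known. Named were all 42 members and, from each further list, up to 3 genes per direction of smallest adjusted p, plus Eif2ak2. The fits were tested on simulated data. Alternatives were scaling by RLE, by upper quartile or by library size, a fit with no low-count filter, one requiring at least 1 CPM in 3 libraries, DESeq2 1.42.0, limma-voom (limma 3.58.1), removal of the gene-length trend, each library left out, a replicate block, and thresholds of 0.01 and 0.1. Shared sequence is the share of 50-base words in GENCODE M21 transcripts found in another gene. Coordinates are those of the count table, equal to GENCODE M21 (GRCm38) for 41 of 42 members.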

Additional observations from a re-analysis of the deposited data

How the results depend on the processing

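Equal replicate numbers (2 and 3) did not deviate together (correlations of -0.0046 and -0.026 over 15117 genes). The labels do not say whether equal numbers mark a shared culture or day, and 2 numbers cannot settle it. With the replicate block on those 4 libraries 20 of the 41 genes were called, against 19 in the same libraries unblocked and 14 in all 6. In the ATF6 and XBP1 arm 8 were called with the block, 8 without it and 7 with no filter, against 4. Over all tested genes the block called 20.7%, the same libraries unblocked 18.5%, no filter 12.1% and the main fit 18.7%. Of the sensors 1 was called with DESeq2, which called 20.5% of all tested genes, and 1 in the 4 libraries unblocked, against 2. An adjusted p under 0.01 kept 7 of the 41 and 3 in the ATF4 arm. The share of all tested genes under 0.01 is not given here, so these counts cannot be set against it. Leaving out a library gave 10 to 14 calls in all, 4 to 8 in the ATF4 arm (4 without CRISPRa replicate 3, 5 without no-sgRNA replicate 3), 1 to 2 sensors, and an ATF4-arm median of -0.015 to 0.085. These leave-one-out fits called 12.8% to 16.2% of all tested genes.

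The sign of 12 genes that did not pass changed. With the replicate block and in the same 4 libraries unblocked, the log2 fold changes were 0.0248 and 0.0246 for Atf4, -0.0242 and -0.0303 for Cebpb, -0.0614 and -0.0617 for Nupr1, -0.0259 and -0.0260 for Trib3, -0.0710 and -0.0711 for Stc2, -0.0456 and -0.0449 for Dnajc3, and -0.0984 and -0.0937 for Sdf2l1. Removing the gene-length trend gave 0.0403 for Atf4, 0.0435 for Asns, 0.0551 for Phgdh, 0.0111 for Chac1 and 0.00023 for Sesn2. With RLE, library-size scaling, the CPM filter and DESeq2, Asns was 0.00084, 0.0091, 0.0048 and 0.00084, and Phgdh was 0.0062, 0.0144, 0.0101 and 0.0062. Phgdh was 0.00060 with upper-quartile scaling and 0.0039 with no filter, and Nupr1 was -0.0073 with limma-voom. Leaving out a library gave -0.058 to 0.026 for Atf4, -0.015 to 0.137 for Cebpb, -0.141 to 0.092 for Nupr1, -0.0067 to 0.085 for Trib3, -0.058 to 0.046 for Asns, -0.049 to 0.044 for Phgdh, -0.056 to 0.032 for Sesn2, -0.0034 to 0.138 for Stc2, -0.029 to 0.096 for Dnajc3, -0.040 to 0.305 for Sdf2l1 and -0.089 to 0.052 for Eif2ak3. The cause of these changes was not tested.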

Other observations

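Among all 10671 tested genes with a promoter window, 301 held a CARE. Of these 15.6% were called higher and 6.64% lower with CRISPRa, where 10.5% and 10.4% of all genes with a window were. The ERSE was found in 22 tested genes, of which 1 was called higher and 0 lower, with a median log2 fold change of 0.15. The 22 include the 6 members with an ERSE, and the 1 called higher was the member Hspa5. The XBP1 motif was found in 110 tested genes, of which 10.0% were called higher and 5.45% lower. These shares were not tested.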
